A study of Mus musculus with 2 samples.

Results

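The genes of fatty acid uptake and oxidation were followed here in wells that were each sorted to hold a single mouse heart muscle cell (cardiomyocyte). The list named 34 genes by symbol, from the lipase at the vessel wall to the last enzymes of mitochondrial beta-oxidation, and 33 of them had a row in both tables of unique molecular identifier (UMI) counts, out of 27443 genes with a row in either table. The cells came from adult wild-type C57BL/6 mice by enzymatic perfusion of the heart and were sorted into 96-well plates by large particle fluorescence-activated cell sorting, a cytometer for objects too large for an ordinary nozzle. One experiment took cells from the chambers of hearts about 3 months old, with wells labelled LA and RA (left and right atrium) and LV and RV (left and right ventricle). The other took ventricular cells after ethanol fixation (fixed) or before it (live). Neither experiment carried a gene deletion, a transgene or a drug, and no animal was named for any well, so each group was handled as 1 pool of cells with no replicate.

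The adult heart draws most of its energy from fatty acids. Lipoprotein lipase frees them from circulating triglyceride, CD36 and the transporter FATP1 pass them across the cell membrane, and heart fatty acid-binding protein carries them through the cytosol. Acyl-CoA synthetase activates them, the carnitine shuttle brings the acyl chains into the mitochondrial matrix, and each turn of the oxidation spiral then removes a short carbon unit while electrons pass through the electron transfer flavoprotein to the respiratory chain. Malonyl-CoA restrains entry at the carnitine step, and surplus acyl chains are held as triglyceride in lipid droplets. Many of these genes are known targets of the nuclear receptor PPAR-alpha, which raises their transcription when fatty acids are abundant, as in fasting.

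Kept cells had at least 1000 gene UMIs and 500 genes, which left 56 of 71 LA wells, 44 of 69 RA wells, 91 of 96 LV wells, 90 of 96 RV wells, 35 of 36 fixed wells and 31 of 36 live wells. Their median depth was 16146 (LA), 4436 (RA), 40953 (LV), 50503 (RV), 77150 (fixed) and 40367 UMIs (live). The chamber wells came in 4 libraries, A to D, and no full barcode was shared between libraries. The atrial markers went only in part with the label. The atrial hormone gene Nppa had 0 UMIs in LA and RA cells, while the atrial myosin light chain gene Myl7 stood at 86.7 (LA), 0 (RA), 1.17 (LV) and 0 CPM (RV), Sln at 7.50 (LA), 0 (RA), 0.39 (LV) and 1.00 CPM (RV) and Stard10 at 53.5 (LA), 53.2 (RA), 26.1 (LV) and 36.1 CPM (RV). Myl4 and Tbx5 went against the label. Myl4 stood at 2.14 (LA), 0 (RA), 6.24 (LV) and 4.35 CPM (RV). Tbx5 stood at 5.35 (LA), 6.38 (RA), 30.0 (LV) and 19.7 CPM (RV). The 6 atrial markers with a row together made up 0.0155% (LA), 0.00596% (RA), 0.00643% (LV) and 0.00616% (RV) of nuclear-encoded UMIs, and the 10 ventricular myocyte markers made up 7.02% (LA), 9.38% (RA), 8.19% (LV), 8.60% (RV), 3.83% (fixed) and 4.72% (live). The chamber cells are therefore called atrial-labelled and ventricular-labelled. Red cell genes took 2.68% (LA), 4.99% (RA), 1.21% (LV) and 1.30% (RV) of the pooled nuclear-encoded UMIs. Cell by cell their median share was 1.81% (LA), 11.3% (RA), 0.815% (LV) and 0.669% (RV). The highest cell reached 60.0% (LA), 48.7% (RA), 12.3% (LV) and 29.0% (RV). The ventricular myocyte markers fell to 0.441% in an LA cell and 0.918% in an LV cell. Not every kept well was therefore shown to hold a myocyte alone. Adipocyte markers had 0 UMIs in the atrial-labelled cells and 5 (LV), 3 (RV), 10 (fixed) and 18 (live) UMIs elsewhere.

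Levels are given as counts per 1000000 (CPM) of nuclear-encoded UMIs in the pooled cells of a group. Each UMI marks a molecule's polyadenylated end once, so the values were not divided by transcript length. The uptake genes led. Lpl, lipoprotein lipase, stood at 2175 (LA), 3170 (RA), 2780 (LV) and 2892 CPM (RV), and at 1741 (fixed) and 2495 CPM (live). Fabp3, heart fatty acid-binding protein, stood at 2315 (LA), 2755 (RA), 2538 (LV) and 2530 CPM (RV), and at 2828 (fixed) and 2366 CPM (live). These were the 2 highest members in every group, with Lpl above Fabp3 beyond counting error in RA, LV and RV cells, Fabp3 above Lpl in fixed cells, and meeting intervals in LA and live cells. Cd36, the membrane fatty acid translocase, was lower, with 751 (LA), 798 (RA), 931 (LV) and 982 CPM (RV), and 551 (fixed) and 621 CPM (live). Slc27a1, which encodes FATP1, stayed between 73.0 and 139 CPM in all 6 groups. Endothelial cells also make Cd36, and the 12 endothelial markers made up 0.0379% (LA), 0.0164% (RA), 0.0650% (LV), 0.0604% (RV), 0.00557% (fixed) and 0.00842% (live) of nuclear-encoded UMIs.

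**Figure D1:**
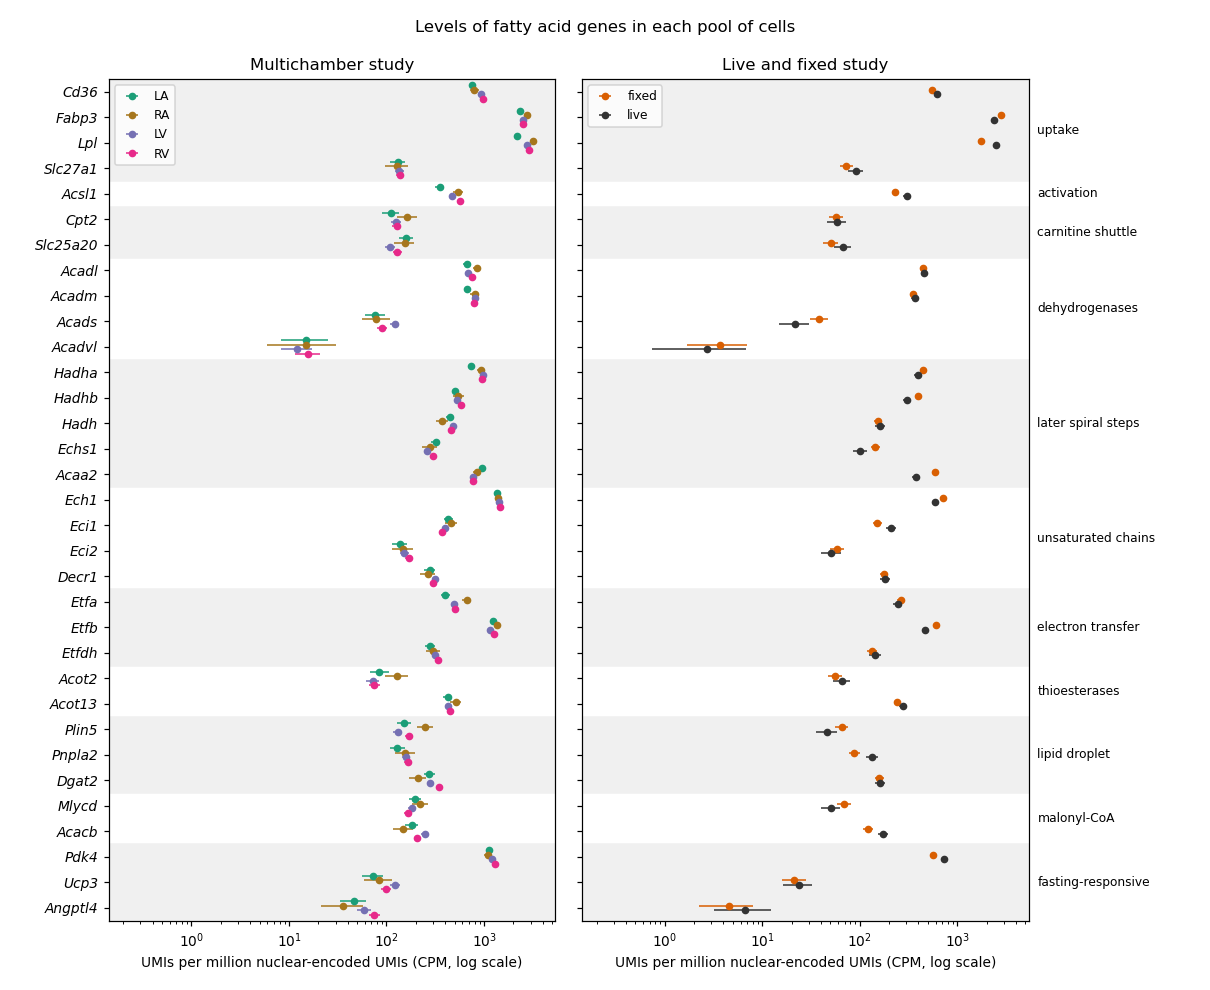
Level of each of the 33 genes in the pooled cells of each group, in UMIs per 1000000 nuclear-encoded UMIs on a log scale, with exact Poisson 95% intervals that cover counting error only. Rows are grouped by role, and Lpl and Fabp3 stand at the top of every group while Acadvl and Angptl4 stand at the bottom.

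Activation and the carnitine shuttle came next. Acsl1, the main long-chain acyl-CoA synthetase of heart, stood at 352 (LA), 540.3 (RA), 468 (LV) and 571 CPM (RV), and at 231 (fixed) and 309 CPM (live). Cpt2, the carnitine palmitoyltransferase of the inner membrane, and Slc25a20, the carnitine carrier, stayed between 50.7 and 164 CPM in all 6 groups, so the measured shuttle genes were among the lower members. The outer-membrane partner, the muscle carnitine palmitoyltransferase gene Cpt1b, had no row in either table used here. Its last exon, 575 bases at chr15:89416405-89416979 (GRCm38, minus strand), lies whole within an exon of Gm44502, a gene annotated on the same strand across Cpt1b and its neighbour Chkb. Gm44502 had 265 (LA), 299.9 (RA), 388 (LV) and 371 CPM (RV), and 211 (fixed) and 214 CPM (live). Those UMIs cannot be assigned to Cpt1b, which was not analysed here.

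The matrix enzymes spanned a wide range. Acadm and Acadl, the medium- and long-chain acyl-CoA dehydrogenases, stood at 816 and 678 CPM in LV cells, while Acads, the short-chain enzyme, stood at 77.1 (LA), 78.7 (RA), 121 (LV) and 90.7 CPM (RV), and at 38.4 (fixed) and 21.6 CPM (live). Acadvl, the very-long-chain enzyme, was the lowest member in every group, with 15.0 (LA), 14.9 (RA), 12.1 (LV) and 15.7 CPM (RV), and 3.71 (fixed) and 2.70 CPM (live). Its last exon, 254 bases at chr11:70010183-70010436 (GRCm38, minus strand), lies whole within an exon of Dvl2 on the other strand, and Dvl2 held 34 UMIs in the kept chamber cells and 13 in the kept fixed and live cells. Whether counting dropped reads shared by the 2 genes was not tested, so the level of Acadvl is uncertain.

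Of the later steps, the alpha and beta subunits of the trifunctional protein, Hadha and Hadhb, stood at 978 and 532 CPM in LV cells and 956 and 581 CPM in RV cells. Acaa2, the matrix thiolase, stood at 949 (LA), 847 (RA), 780 (LV) and 778 CPM (RV), and at 586 (fixed) and 374 CPM (live). Ech1, an isomerase that handles double bonds of unsaturated chains, was the highest gene of the spiral and electron transfer, with 1358 (LA), 1387 (RA), 1410 (LV) and 1463 CPM (RV), and 721 (fixed) and 594 CPM (live). Etfb, the beta subunit of the electron transfer flavoprotein, stood close to it, with 1250 (LA), 1361 (RA), 1149 (LV) and 1253 CPM (RV), and 601 (fixed) and 472 CPM (live). Its partner Etfa was at 489 CPM in LV and 501 in RV cells, so the UMIs of the 2 subunit genes were not equal in number.

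Among the genes that set fuel choice, Pdk4, the kinase that shuts off pyruvate dehydrogenase, was the highest, with 1124 (LA), 1102 (RA), 1196 (LV) and 1297 CPM (RV), and 569 (fixed) and 735 CPM (live). Ucp3, a mitochondrial carrier known to rise on fasting, stood at 72.8 (LA), 83.0 (RA), 122 (LV) and 99.4 CPM (RV), and at 21.4 (fixed) and 23.6 CPM (live). Angptl4, a secreted inhibitor of lipoprotein lipase, stood at 46.1 (LA), 36.2 (RA), 58.5 (LV) and 75.3 CPM (RV), and at 4.54 (fixed) and 6.74 CPM (live). The inhibitor of the lipase was therefore far below the lipase itself in UMIs. Acacb, which makes malonyl-CoA at the mitochondrion, and Mlycd, which breaks it down, were at 246 and 183 CPM in LV cells. The droplet genes Dgat2, Pnpla2 and Plin5, for triglyceride synthesis, its first hydrolysis and the droplet coat, were at 281, 158 and 131 CPM in LV cells. The thioesterases, which release free fatty acid from acyl-CoA, were unequal too: Acot13 was at 429 and Acot2 at 72.1 CPM in LV cells.

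Hadha and Hadhb encode the subunits of a single enzyme complex and start back to back on mouse chromosome 5, so the DNA between them is shown. In the RefSeq promoter table (GRCm38.p6) Hadha starts at 30154980 on the minus strand and Hadhb at 30155253 on the plus strand, 273 bases apart. The 85 bases at chr5:30155163-30155247 lie between the outermost annotated ends of both genes, and capitals mark 2 GGGCGG boxes, the core letters of a GC box.
Hadha and Hadhb, plus strand: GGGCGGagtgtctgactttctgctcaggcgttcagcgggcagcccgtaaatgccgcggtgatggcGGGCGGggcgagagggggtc
GGGCGG, searched on both strands of windows from 250 bases before to 50 after each RefSeq start, was found in 20 of the 31 windows of the members (64.5%) and in 35.7% of all 32851 windows. The table held windows for 27 of the 34 named genes.

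The nuclear receptors of the PPAR family bind a direct repeat of AGGTCA with a base between the copies, AGGTCANAGGTCA, and the closest matches in the members' windows are shown for that reason. Both strands were searched and at most 2 mismatches were allowed, with N standing for any base. Capitals mark letters that match the repeat, and lower case marks the mismatches and the spacer.
Cd36, chr5:17835947-17835959, plus strand: AaGTCAgAGGcCA
Ucp3, chr7:100472940-100472952, plus strand: AGGTttcAGGTCA
Echs1, chr7:140116492-140116504, minus strand: AGGTCAcgGGTCc
Etfa, chr9:55512308-55512320, plus strand: AGGgCAaAGGTaA
Slc25a20, chr9:108662142-108662154, plus strand: AGGTgAaAGGTCg
These 5 windows were 16.1% of the members' 31, against 3.86% of all 32851 windows. Their centres lay at -57, -45, -77, -71 and 12 bases from the RefSeq start, in the order listed. None of the members' windows held the exact repeat, which occurred in 13 of all windows. A single AGGTCA, which every exact repeat also contains, was in 8 of the 31 windows (25.8%) and in 16.3% of all windows. A match of letters is not a bound site, and no binding was measured in these cells.

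The 33 genes together gave 1.72% (LA), 1.98% (RA), 1.89% (LV) and 1.95% (RV) of the nuclear-encoded UMIs of the chamber pools, and 1.16% (fixed) and 1.18% (live) in the other experiment. The 2 experiments were separate samples with no group in common, so the lower share in the fixed and live cells was not tested against the chambers. Cell by cell, the median share was 1.88% in LA and 1.62% in RA cells, against 1.98% in LV and 1.97% in RV cells. The atrial-labelled cells reached lower, with lower quartiles of 1.11% in LA and 1.15% in RA against 1.71% in LV and 1.69% in RV cells. In RA cells the share was lower where red cell RNA was higher, with Spearman's rho of -0.79 over 44 cells. In LA cells rho was -0.43 with red cell RNA and -0.54 with the share of all non-myocyte markers, over 56 cells. Both shares are fractions of the same cell's total, so part of such a relation is arithmetic. In live cells the share was lower where mitochondrially encoded RNA was higher, with rho of -0.75 over 31 cells, and in fixed cells rho was 0.088 over 35 cells. The same rho was -0.32 in LV, -0.32 in RV, 0.30 in LA and 0.24 in RA cells.

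**Figure D2:**
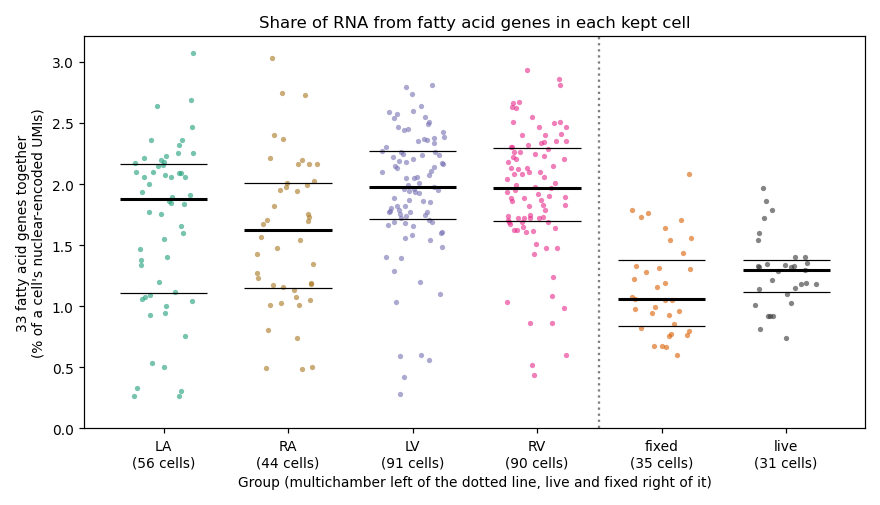
Percent of each kept cell's nuclear-encoded UMIs that came from the 33 fatty acid genes. Each point is a cell, thick lines are medians and thin lines are quartiles. The lower quartile lies at 1.11% in LA and 1.15% in RA cells, against 1.71% in LV and 1.69% in RV cells.

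Ratios between groups are given with exact 95% Clopper-Pearson intervals that cover counting error only, and a gene was counted as higher or lower where it had at least 30 UMIs over both groups, the ratio of CPM was past 1.5-fold and the interval excluded 1. Over a list, the median is that of log2 ratios with 5 CPM added to each level. Intervals narrow as UMIs rise, and the members have more UMIs than most genes. The part of level in any share of intervals that exclude 1 was not tested.

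In atrial-labelled over ventricular-labelled cells few members passed 1.5-fold, though many differed by less. Of 33 measured members, 0 were higher, beside 14% of all 11682 genes measured, and 1 was lower, beside 14.6% of all genes. The lower one was Angptl4, the lipase inhibitor, with a ratio of 0.633 (0.474 to 0.833), from 60 UMIs in atrial-labelled and 375 in ventricular-labelled cells. Within libraries A to D its ratio was 0.441, 0.448, 1.02 and 1.08, so libraries A and B carried it. It was no longer past 1.5-fold without library A (0.721) or library B (0.729), with all gene UMIs as the total (0.705), with cells weighted equally (0.740) or with libraries weighted equally (0.707). The members' median log2 ratio was -0.096, beside -0.063 for all genes, and within libraries A to D it was 0.14, -0.26, -0.069 and -0.15.

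Smaller differences went both ways: 7 members had intervals above 1, beside 18.3% of all genes, and 15 had intervals below 1, beside 19.8% of all genes. Acaa2 was the 1 member on the higher side in all 4 libraries, beside 2.63% of all genes, with a ratio of 1.17 (1.10 to 1.25). Acsl1, Acads, Hadha and Hadh, the hydroxyacyl-CoA dehydrogenase of the spiral, made 4 members on the lower side in all 4 libraries, beside 14.7% of all genes. Their ratios were 0.793, 0.742, 0.827 and 0.903. The 3 fasting-responsive genes were among the 15, with Ucp3 at 0.694 (0.560 to 0.854) and Pdk4 at 0.893 (0.845 to 0.944), but neither kept its side in every library. The shares of red cell RNA given above moved with this label, and their part in these ratios was not tested. The non-myocyte markers include the red cell genes, whose lower quartile was 2.17% in RA cells, so a 2% limit left out most RA cells. With cells over 2% non-myocyte RNA left out the median was -0.13, and 2 members were lower. With cells over 0.5% mesothelial RNA left out it was 0.060, Angptl4 at 0.715 was no longer past 1.5-fold and Acot2 at 1.52 was higher.

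LA over RA was the chamber comparison with the most members past 1.5-fold, and it rested on the fewest cells. Of 32 measured members, 0 were higher, beside 22.6% of all 5715 genes measured, and 4 were lower, beside 12.9% of all genes. Those were Acsl1 at 0.652 (0.552 to 0.771), Etfa at 0.607 (0.521 to 0.708), Plin5 at 0.611 (0.475 to 0.787) and Acot2 at 0.663 (0.468 to 0.943). Plin5, which ties lipid droplets to mitochondria, had 152 CPM in LA and 249 CPM in RA cells. Acot2 had 84.6 CPM in LA and 128 CPM in RA cells. In RA cells the top cell of each gene gave 33.9% of the UMIs of Acsl1, 40.8% of Etfa, 40.2% of Plin5 and 40.0% of Acot2. Without each gene's top cell the ratios were 0.711, 0.740, 0.736 and 0.796 in that order, so none was past 1.5-fold, and none was with cells weighted equally, where Acsl1 turned to 1.35. Lpl was also below 1, at 0.686 (0.642 to 0.734), just inside 1.5-fold. It was past 1.5-fold without library A (0.637), without library D (0.633) and with read counts (0.520). Cpt2, at 0.673, was past it without library A (0.554), without library B (0.653) and with read counts (0.394). Neither Lpl nor Cpt2 was past it with cells weighted equally or without library C.

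Library C held most of the difference in Etfa, Acot2 and Plin5, but Acsl1 was still at 0.685 without it. The members' median log2 ratio was -0.10, beside 0.10 for all genes, and within libraries A to D it was -0.093, -0.33, -1.04 and 0.68. In library C, 1 of the 6 LA cells held 61197 of their 137062 gene UMIs, with a members' share of 0.264%. Library B had such a cell too: 1 of its 22 LA cells held 102715 of their 673768 gene UMIs, with a share of 0.327%. Etfa in library C stood at 227 CPM in 6 LA cells and 780 CPM in 17 RA cells, and in library A at 515 CPM in 23 LA cells and 394 CPM in 11 RA cells. Without library C its log2 ratio was 0.0074 and that of Acot2 was 0.085. Plin5 was then at a ratio of 0.880, and none of the 4 was past 1.5-fold. Without it the 1 lower member was Eci2, at 0.518, which stood at 0.934 with all libraries. With LA cells and RA cells over 0.5% mesothelial RNA left out, 0 members were lower, and mesothelial markers made 0.141% of the LA pool's nuclear-encoded UMIs, against 0.0143% of the RA pool's. None of the members was higher in all 4 libraries, beside 6.33% of all genes, and 1 was lower in all 4, beside 3.81%: Ucp3, at 0.878 (0.584 to 1.34). It had 104, 68.3, 27.2 and 17.2 CPM in LA cells of libraries A to D, against 111, 143, 63.7 and 121 CPM in RA cells. The library D values rested on 1 UMI in LA and 4 UMIs in RA cells. With each library weighted equally, a weighting chosen after the data were seen, its ratio was 0.443.

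LV and RV cells, the deepest of the chamber experiment, differed by less than 1.5-fold in every member. Of 33 measured members, 0 were higher, beside 13.7% of all 10812 genes measured, and 0 were lower, beside 8.62% of all genes. Smaller differences leaned to RV cells. Intervals lay above 1 for 3 members, beside 2132 of the 10812 genes. They lay below 1 for 11 members, beside 1463 of the 10812 genes. The range of ratios ran between 0.768 for Acadvl and 1.33 for Acads, and the median log2 ratio was -0.057, beside 0.034 for all genes. Within libraries A to D the members' median was -0.22, -0.11, 0.0086 and 0.11, so its sign was not the same in all libraries.

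Only 3 members kept a side in every library. They made 3.03% of the members on the higher side, below the share of all genes, and 6.06% on the lower side, near that share. Ucp3 was the 1 member higher in LV cells in all 4 libraries, beside 6.42% of all genes, at 1.23 (1.04 to 1.44). It had 109, 115, 134 and 129 CPM in LV cells of libraries A to D, against 73.3, 97.4, 116 and 102 CPM in RV cells. Acsl1 and Hadhb were the 2 members lower in all 4, beside 5.11% of all genes. Acsl1 was at 0.819 (0.760 to 0.883), with 412, 552, 474 and 443 CPM in LV cells of libraries A to D, against 572, 624, 484 and 631 CPM in RV cells. Across libraries the LV and RV values of Ucp3 and of Acsl1 overlapped. Hadhb was at 0.915 (0.852 to 0.983), with 578, 575, 496 and 479 CPM in LV cells, against 604, 590, 559 and 581 CPM in RV cells, and its LV and RV values overlapped too.

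The droplet genes Plin5 at 0.776 (0.674 to 0.893) and Dgat2 at 0.805 (0.731 to 0.886), and the lipase inhibitor Angptl4 at 0.776 (0.627 to 0.959), were on the lower side in LV cells, each in 3 of 4 libraries. Acads at 1.33 (1.13 to 1.57) and Acacb at 1.19 (1.06 to 1.33) were on the higher side, each in 3 of 4 libraries. Abundant members close to 1 included Fabp3 at 1.00 (0.970 to 1.04), Acaa2 at 1.00 (0.943 to 1.06) and Hadha at 1.02 (0.969 to 1.08), and the less abundant Cpt2 was at 0.993. Even so, Fabp3 within libraries A to D was at 0.680, 0.827, 1.33 and 1.21.

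**Figure D3:**
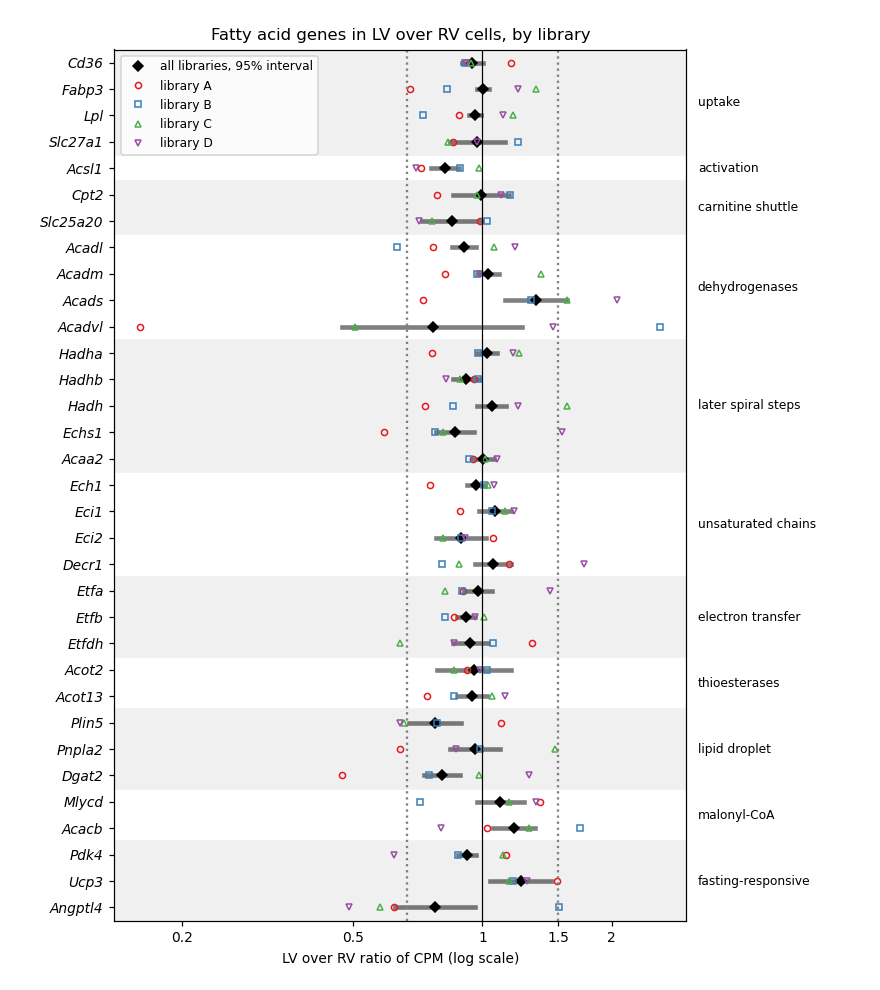
LV over RV ratio of CPM for each of the 33 genes on a log scale, with black diamonds and bars for all libraries together with the exact 95% interval and open symbols for each library. Dotted lines mark 1.5-fold, and Ucp3 stands above 1 and Acsl1 and Hadhb below 1 in all 4 libraries while most other genes have libraries on both sides. All genes kept a side in all 4 libraries at shares of 6.42% (above 1) and 5.11% (below 1).

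In fixed over live cells few members passed 1.5-fold. Of 31 measured members, 2 were higher in fixed cells, beside 7.24% of all 7860 genes measured, and 1 was lower, beside 34.1% of all genes. Acads was at 1.78 (1.18 to 2.75), from 93 UMIs in fixed, against 32 in live cells, and Acaa2 at 1.57 (1.42 to 1.73), from 1420 UMIs in fixed and 555 UMIs in live cells. Pnpla2, the lipase that starts the breakdown of stored triglyceride, was the lower one at 0.655 (0.537 to 0.798), with 88.3 (fixed) and 135 CPM (live). Acadvl and Angptl4 had too few UMIs to be measured. The members' median log2 ratio was -0.032, beside -0.31 for all genes, so the list's median stood above that of all genes.

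The enzymes of the spiral, the isomerases and the electron transfer genes were mixed, with more above 1 than below. Of these 15 measured genes 9 were above 1, beside 30.8% of all genes, with a median log2 ratio of 0.16, and 7 had intervals above 1, beside 9.77% of all genes: Acads, Acaa2, Echs1 at 1.44 (1.19 to 1.76), Hadhb at 1.28 (1.14 to 1.43), Etfb at 1.27 (1.16 to 1.39), Ech1 at 1.21 (1.12 to 1.32) and Hadha at 1.12 (1.01 to 1.24). Echs1 is the enoyl-CoA hydratase of the spiral. Eci1, another isomerase, went the other way at 0.724 (0.621 to 0.845). Acadl at 0.978 (0.888 to 1.08) and Acadm at 0.973 (0.873 to 1.08) were close to 1. Without each gene's top cell 7 of the 15 were above 1, with a median of -0.0036.

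The genes of the other roles, uptake, activation, shuttle, thioesterases, droplet and fuel choice, were mostly below 1. Of these 16 measured genes 3 were above 1, with a median log2 ratio of -0.20, and 8 had intervals below 1, beside 38.8% of all genes. Their median was above the -0.31 of all genes. Lpl was at 0.698 (0.668 to 0.730), Acsl1 at 0.750 (0.661 to 0.850), Pdk4 at 0.774 (0.714 to 0.839), Acacb at 0.702 (0.592 to 0.833) and Cd36 at 0.888 (0.816 to 0.967). The 3 above 1 were Fabp3 at 1.20 (1.15 to 1.25), Plin5 at 1.43 (1.07 to 1.93) and Mlycd at 1.37 (1.04 to 1.82). The medians of these 2 sets of roles, which were drawn after their values were seen, lay 0.35 apart on the log2 scale, a description and no support for a difference between roles.

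The side of 1 on which many members lie in fixed over live cells depends on the total they are scaled to: with edgeR's TMM factors 15 of the 15 spiral and electron transfer genes and 13 of the 16 others were above 1. Acads and Acaa2 were above 1 and Pnpla2 below 1 under every alternative tried. The median share of mitochondrially encoded UMIs was 13.8% in fixed cells, against 26.1% in live cells. With edgeR's TMM factors the members' median was 0.45, with 12 members higher and 0 lower, and Pnpla2 had a log2 ratio of -0.11. Set against the shift of all genes, the members' median stood 0.28 above in the main scale. The distance between the 2 sets of roles was 0.36 with TMM factors and 0.33 with each cell weighted equally, but 0.16 with the top cell of each gene left out. No animal was named for either group, so fixation and any difference between the animals behind the 2 groups cannot be told apart.

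**Figure D4:**
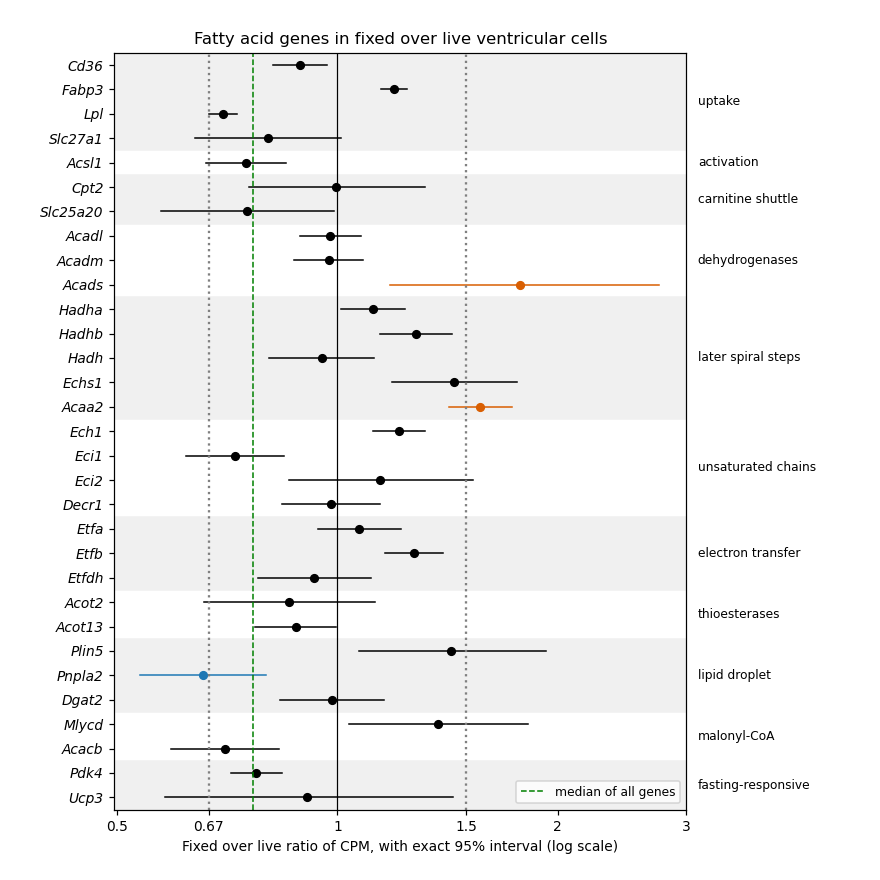
Fixed over live ratio of CPM for the 31 measured genes on a log scale, with exact 95% intervals. Orange marks the 2 genes counted as higher, blue the 1 counted as lower, dotted lines mark 1.5-fold, and the dashed line marks the median of all genes.

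Cell-to-cell variation was measured in cells with at least 20000 UMIs, as the coefficient of variation (CV) left after Poisson counting noise is removed, for genes with a mean of at least 2 UMIs per cell. The median CV of the members was 46.9% over 76 LV cells and 46.1% over 80 RV cells, beside 73.4% and 74.3% for all such genes in LV and RV cells. It was 49.5% over 34 fixed and 42.5% over 23 live cells, beside 67.1% and 53.8%. The members have more UMIs than most genes, and the part of level in this gap was not tested. In LV cells several abundant members were among the most even: Etfb had a CV of 33%, Fabp3 33.6% and Lpl 35.5%. Lpl ranged between 10 and 435 UMIs over the 76 LV cells with a median of 72.

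Several less abundant members varied more. Ucp3 had the highest CV in LV cells, 98.7%, with 0 to 27 UMIs per cell and a median of 2, and 66.9% in RV cells. Angptl4 had 74.6% and Eci2, an isomerase shared with peroxisomes, 73.2% in RV cells. Level alone does not order them, since Pnpla2 and Acacb had CVs of 33.8% and 33.7% in LV cells at means of 5.0 and 8.05 UMIs. Pdk4, with a mean of 38.6 UMIs, had 53.6% in LV and 41.2% in RV cells.

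**Figure D5:**
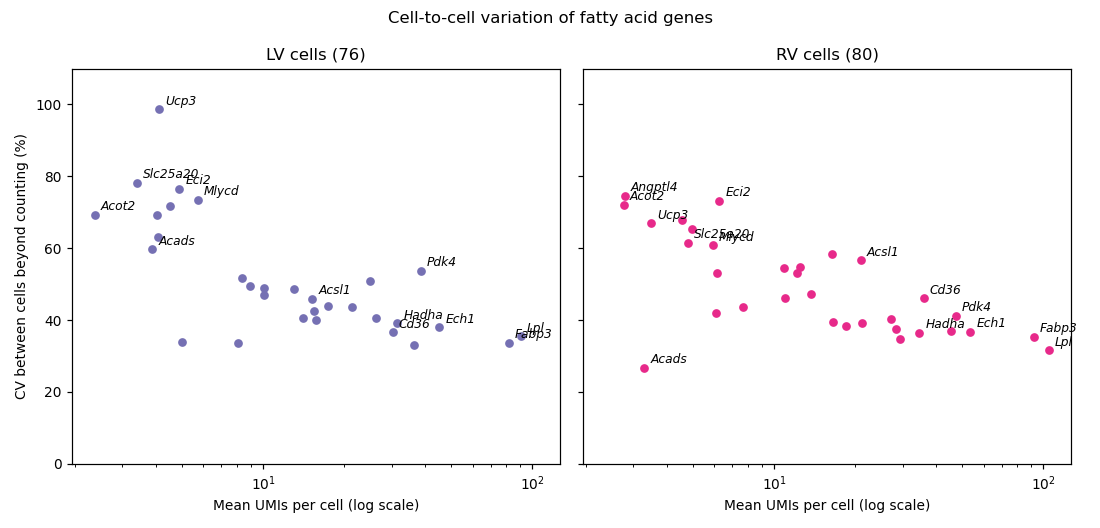
CV between cells beyond counting noise against mean UMIs per cell on a log scale, for members with a mean of at least 2 UMIs, in 76 LV cells and 80 RV cells. Lpl and Fabp3 lie furthest right, with CVs of 35.5% and 33.6% in LV cells, and Ucp3 lies highest in LV cells.

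Across the same cells, pairs of members had higher correlations than gene pairs at large. The median correlation of a pair, computed on depth-corrected residuals within libraries, was 0.13 over 465 pairs in LV cells and 0.097 over 496 pairs in RV cells, beside -0.0026 and 0.0023 for all gene pairs. Correlations over 0.3 made up 11.8% of the members' pairs in LV and 7.46% in RV cells, beside 2.10% and 1.87% of all pairs. The members have more UMIs than most genes, and the part of level in this gap was not tested. Some deep cells had low shares of the members, such as 0.278% in an LV cell of 91793 UMIs. An RV cell of 93261 UMIs had 0.440%. The part of such cells in the correlations was not tested either. Of the pairs measured in both, 14 passed 0.3 in LV and in RV cells. Fabp3 with Hadh had 0.51 in LV and 0.51 in RV cells, and Ech1 with Etfb had 0.49 and 0.45. Hadha with Hadhb, the pair that shares the DNA shown above, had 0.40 in LV and 0.52 in RV cells, and 0.67 in fixed, against 0.33 in live cells. Pdk4 with Hadha had 0.52 in LV and 0.49 in RV cells and 0.47 in fixed cells, but -0.33 in live cells. No animal was named for the cells of a pool and they are not replicates, so these correlations describe the pools.

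Beyond the 34 genes, 82 other genes of fatty acid and lipid metabolism had a row. Up to 2 of the highest and 2 of the lowest of each comparison, ranked with 5 CPM added to each level, are named. In atrial-labelled over ventricular-labelled cells 76 were measured, 7 of them higher and 11 lower, and the lowest were Gpihbp1 at 0.208 (0.102 to 0.380) and Pparg at 0.272 (0.133 to 0.50). Gpihbp1 is the protein of capillary endothelium that anchors lipoprotein lipase, and it is also one of the endothelial markers, whose summed share is given above. The highest were Fasn at 4.57 (2.61 to 8.04) and Ucp2 at 3.67 (2.07 to 6.50). In LA over RA cells 50 were measured, 10 higher and 5 lower, with Acaca at 5.54 (1.74 to 28.2) and Acsl4 at 5.03 (1.57 to 25.8) highest, each on 3 UMIs in RA cells, and Cidea at 0.116 (0.0391 to 0.289) lowest. In LV over RV cells 73 were measured, 7 higher and 6 lower, with Acsl6 at 3.31 (1.72 to 6.80) and Elovl6 at 2.33 (1.27 to 4.45) highest, and Lipe at 0.402 (0.254 to 0.620) and Abhd5 at 0.576 (0.392 to 0.835) lowest. Lipe, hormone-sensitive lipase, and Abhd5, the activator of the lipase encoded by Pnpla2, both act on stored triglyceride. Lipe had 11.3 CPM in LV and 28.1 CPM in RV cells and was lower in all 4 libraries. In fixed over live cells 54 were measured, 11 higher and 9 lower, with Rxra, a partner receptor of the PPARs, at 6.73 (3.12 to 17.3) and Cidea at 5.97 (2.15 to 23.0) highest, and Slc22a5, the carnitine importer, at 0.375 (0.20 to 0.685) and Agpat3 at 0.452 (0.353 to 0.578) lowest. The shares of all genes past the same threshold in each comparison are those given above for the members.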

How the data were processed

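Cells were profiled by SCRB-seq, which tags each well and each molecule at the polyadenylated end. Per the submitters' processing notes, reads were aligned with STAR 2.5.4b to GRCm38 and assigned with featureCounts. The authors deposited UMI counts and read counts per gene and barcode, with per-cell labels, total counts and the percent of mitochondrial reads; only the UMI counts, the read counts (as an alternative) and the labels were used. Barcode columns with no label, 45 in all, were left out. No doublet caller was run on these sorted wells. UMIs were summed per group over kept cells and scaled to 1000000 nuclear-encoded UMIs. Names and positions came from GENCODE M21 (GRCm38) and promoter windows from RefSeq (GRCm38.p6). With 1 pool per group no test was made, and intervals and floors cover counting error only. The scripts, in Python 3.11.15 with scipy 1.17.1 and R 4.3.3 with edgeR 4.0.16 for TMM factors, were checked on simulated counts. Genes with values named were those past 1.5-fold, the 5 highest, the 3 lowest and examples of each role. The members and gene lists were chosen with earlier results of these data known. Some genes outside the 34 are not reported here.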

Additional observations from a re-analysis of the deposited data

How the results depend on the processing

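No paired analysis was possible because each group is 1 pool of cells. In atrial-labelled over ventricular-labelled cells the members' median log2 ratio was 0.058 with all gene UMIs as the total, -0.25 with each cell weighted equally and 0.060 without cells over 0.5% mesothelial RNA, and between -0.20 and -0.0083 with a library left out. The count of higher members, 0, was 3 with read counts and 1 without the mesothelial-rich cells, and 0 to 2 with a library left out. The count of lower members, 1, was 0 with all gene UMIs and without the mesothelial-rich cells, 5 with cells weighted equally, 6 with read counts and 2 without cells over 2% non-myocyte RNA, and 0 to 2 with a library left out, where Angptl4 was lost without library A and without library B.

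In LA over RA cells the median was 0.081 with cells weighted equally, 0.064 without the mesothelial-rich cells and below 0 under the other alternatives, and -0.20 to -0.046 with a library left out. The higher count was 4 with cells weighted equally, 3 with read counts, 1 without the mesothelial-rich cells and 2 with each library weighted equally, a weighting chosen after seeing the data, and 0 to 1 with a library left out. The lower count, 4, was 0 with cells weighted equally, 9 with read counts, 0 without each gene's top cell, 0 without the mesothelial-rich cells and 2 with pseudogenes and ribosomal RNA out of the total, and 1 to 6 with a library left out. With cells weighted equally Acsl1 reversed to a log2 ratio of 0.42 and Plin5 to 0.019, and without library C Etfa reversed to 0.0074 and Acot2 to 0.085 (-1.06 and -1.0 without library A).

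In LV over RV cells the median was -0.0039 with all gene UMIs, -0.13 with TMM factors and -0.15 with median-of-ratios factors, reversed to 0.0060 with cells weighted equally, and ran between -0.12 and 0.0080 with a library left out, above 0 without library A. The higher count was 2 with read counts and 0 to 1, and the lower count 0 to 2, with a library left out. In fixed over live cells the median was 0.21 with all gene UMIs, 0.45 with TMM, 0.52 with median-of-ratios factors and 0.39 with read counts. The higher count, 2, was 7, 12, 12 and 9 in that order, 1 with cells weighted equally, 1 without each gene's top cell, 1 with pseudogenes and ribosomal RNA out, and 4 in cells of at least 20000 UMIs. The lower count, 1, was 0 with all gene UMIs, TMM and median-of-ratios factors, 5 with cells weighted equally and 3 with pseudogenes and ribosomal RNA out. The cause of these changes was not tested. Depth limits the lowest genes: 3 UMIs are 3.21 (LA), 6.38 (RA), 1.17 (LV), 1.00 (RV), 1.24 (fixed) and 2.02 CPM (live).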

Other observations

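Plin2, the common coat protein of lipid droplets, was at 0.638 (0.475 to 0.851) in LV over RV cells, named after its values were seen, with 29.2 CPM in LV and 45.8 CPM in RV cells. Plin2, Lipe and Prkaa2, a catalytic subunit of AMP-activated kinase, were among 5 of the 73 measured genes outside the list of 34 that were lower in all 4 libraries. That count is near the share of all genes, 5.11%.

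In fixed over live cells the receptor gene Ppara was at 0.511 (0.403 to 0.648) and its coactivator gene Ppargc1a at 0.627 (0.549 to 0.716), also named after their values were seen, with 54.4 (fixed) and 106 CPM (live) for Ppara. By the 1.5-fold rule 34.1% of all 7860 genes were lower in fixed cells, and the median log2 ratio of all genes was -0.31. These ratios too depend on the total they are scaled to.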
